A study of Mus musculus with 30 samples.

Results

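Undifferentiated spermatogonia, the pool of mouse germ cells that holds the spermatogonial stem cells (SSCs), are marked by a set of transcription regulators, and 8 of these genes are described here: *Zbtb16*, *Sall4*, *Foxo1*, *Pou5f1*, *Utf1*, *Pax7*, *Dmrt1* and *Taf4b*. They were chosen by name, as genes known in these cells, with earlier results of these data known. Of the 8 genes, 7 were among the 13904 genes with an RNA level, 5 were among the 5806 transcripts with a half-life, and 4 had both. *Taf4b* had half-lives only, whereas *Pou5f1*, *Utf1* and *Pax7* had levels only. The study placed an epitope tag with EGFP at the N-terminus of the endogenous NANOS2, an RNA-binding protein needed for the upkeep of SSCs, and cultured SSC lines from postnatal testes on feeders of mouse embryonic fibroblasts. RNA levels came from 1 total RNA library of *Nanos2*TAG/+ line 4, called the heterozygous line here, and 1 of *Nanos2*TAG/TAG line 5, called the homozygous line. Half-lives came from SLAM-seq, in which 4-thiouridine marks RNA and its loss is followed during a chase, with 12 libraries over 6 chase times from 0 to 1440 min in each of the same lines and 1 fitted half-life per line. Both lines carry the tagged allele, 1 copy in the first and 2 in the second, and each genotype was represented by 1 line. The RNA for the levels was extracted with QIAzol from the heterozygous line and with Trizol from the homozygous line, both after depletion of feeders, and with Trizol from both lines for the half-lives, as the sample labels state. The methods of the study describe QIAzol alone for the levels, and a cell sort by scatter that separates SSCs from remaining feeders for both kinds of library. Genotype and line therefore cannot be told apart in either measurement, nor can the labelled reagent in the levels, and no difference between the lines has a replicate check or a test.

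These genes encode proteins that bind DNA or join the transcription machinery, and they are used to recognise the undifferentiated state or are needed to keep it. ZBTB16 (PLZF) and SALL4 are zinc finger proteins that recruit repressor complexes, FOXO1 is a forkhead factor held in the cytoplasm by AKT signalling, and DMRT1 is a doublesex-related factor that restrains entry into meiosis. OCT4, the product of *Pou5f1*, and UTF1 belong to the pluripotency network, PAX7 marks a small subset of spermatogonia and muscle satellite cells, and TAF4B is a germ cell form of a TFIID subunit.

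The levels are FPKM, fragments scaled to transcript length and to a factor for sequencing depth. They came out as whole reads in 100% of the genes with a length, within 0.02 of a read. These summed to 10931439 reads for the heterozygous library and 11627842 for the homozygous library. The depth factors found were 10908790 and 11738620 reads, the first below its sum, so the scaling was not by plain read totals. The median FPKM of all listed genes was 10.2 and 10.5. Of 9 germ cell markers, 8 were listed, all but *Dazl*, with summed FPKM of 676 and 813. The highest were *Piwil2* (238 and 300) and *Mael* (163 and 177). In the homozygous line 2 were past 2-fold lower, *Tdrd9* (7.24 and 1.43) and *Sycp3* (4.59 and 0.632), and 0 past 2-fold higher. Of all genes with FPKM of at least 1 in either line, 9.28% were past 2-fold lower and 13% higher. Of 12 fibroblast markers for feeders, 10 were listed, all but *Lum* and *Acta2*, with sums of 330 and 414, most of it from *Fn1* (254 and 280). Of 6 Sertoli cell markers, 5 were listed, all but *Amh*, with sums of 8.19 and 29.7. Among these, 4 had FPKM of at least 1 in either line, with 3 past 2-fold higher in the homozygous line and 0 lower. The 3 were *Wt1* (2.51 and 19.6), *Sox9* (2.19 and 4.49) and *Gata4* (0.643 and 2.35, from 13 and 51 reads). Of 4 Leydig cell markers only *Star* was listed (4.62 and 1.20), past 2-fold lower. A gene without a listed level may still be expressed, as *Dazl* had half-lives of 466 and 469 min. Germ cell RNA was thus present in both libraries, beside RNA of fibroblast genes, although the methods name a sort against feeders. The germ cell sum does not by itself tell undifferentiated spermatogonia from other germ cells. The part of other cells in the values below was not tested, and in bulk RNA fewer cells of a type and less RNA per cell cannot be told apart. Intervals given for levels are exact 95% Poisson intervals of the recovered reads and cover counting error only.

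Among the 7 regulators with a level, 4 were abundant in both lines and differed little between them. *Dmrt1*, *Sall4*, *Zbtb16* and *Foxo1* lay between the 83.5th and the 99.0th percentile of all genes, and their log2 ratios of homozygous over heterozygous ran from -0.18 to -0.07. *Pou5f1* was next and somewhat lower in the homozygous line, *Utf1* was low and 2.95-fold higher in that line, and *Pax7* was near the bottom in both. *Utf1* was thus the only one of the 7 past 2-fold, where 22.3% of the 13032 genes with FPKM of at least 1 in either line passed this limit in either direction. In all, 2 regulators were higher and 5 lower in the homozygous line, beside 6544 higher and 6488 lower of the 13032 genes. The median log2 ratio of the regulators was -0.12, against 0.0024 over those genes. All 7 had FPKM of at least 1 in both lines, so the filter removed none of them. Log2 ratios of FPKM were taken after adding 0.1 to each value, which slightly understates the ratio of low genes.

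**Figure D1:**
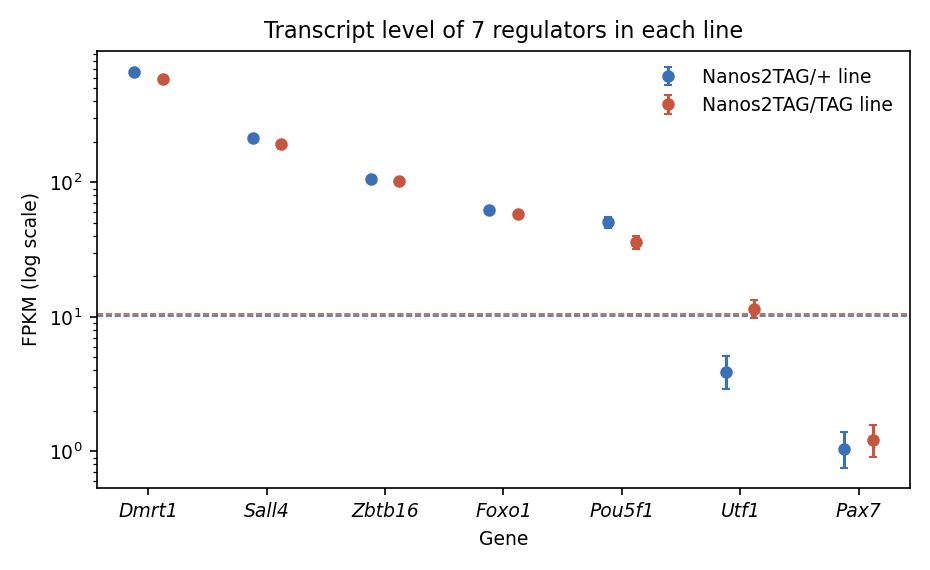
FPKM (y axis, log scale) of the 7 regulators in the heterozygous library (blue) and the homozygous library (red), 1 library per line. Bars are 95% counting intervals, hidden by the points for the 4 most abundant genes, and dashed lines are the medians of all listed genes, 10.2 and 10.5. *Utf1* is the only gene whose points lie on different sides of the medians, at 3.88 and 11.5.

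*Zbtb16*, a repressor of the BTB-zinc finger family and the classical marker of these cells, lies on chromosome 9 (48654297 to 48836222, minus strand, GRCm38). Its FPKM was 107 (interval 104 to 110.0) in the heterozygous line and 102 (98.7 to 105) in the homozygous line, from 4438 and 4546 reads. The intervals of the levels overlapped, and the log2 ratio was -0.07, with a counting interval of -0.13 to -0.01 for scaled reads that did not include 0. Its half-life was 259 min in the heterozygous line and 253 min in the homozygous line, at the 64.8th and 60.2nd percentile of all 5806 transcripts. *Zbtb16* was thus an abundant mRNA of somewhat longer than median half-life, and neither quantity separated the lines by more than 5%.

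*Sall4*, a zinc finger protein that works with the NuRD deacetylase complex in germ cells, lies on chromosome 2 (168748332 to 168767943, minus strand). Its FPKM was 214 (208 to 220.2) in the heterozygous line and 192 (186 to 198) in the homozygous line, from 4420 and 4264 reads. The counting intervals did not overlap, but the log2 ratio of -0.16 was small beside other genes of like depth. Among the 1300 genes in the same decile of reads, the 5th and 95th percentile of the log2 ratio were -0.82 and 0.73. The half-life of *Sall4* was 261 min in the heterozygous line and 299 min in the homozygous line, a ratio of 1.14. Level and half-life therefore differed in opposite directions between the lines, each by little.

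*Dmrt1*, which keeps spermatogonia from entering meiosis too early and is also expressed in Sertoli cells, lies on chromosome 19 (25505618 to 25604329, plus strand). It was the most abundant of the 7, with FPKM of 666 (654 to 679) in the heterozygous line and 590 (579 to 601) in the homozygous line, from 11710 and 11154 reads. These levels were at the 99.0th and 98.9th percentile of all genes, and the log2 ratio was -0.18. The 5 listed Sertoli cell markers together reached FPKM of 8.19 and 29.7, and *Wt1* among them had 2.51 and 19.6. Whether any *Dmrt1* RNA came from Sertoli cells was not tested. The half-life of *Dmrt1* was the longest of the 5 regulators, 318 min in the heterozygous line and 302 min in the homozygous line, at the 81.7th and 75.4th percentile.

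*Foxo1*, a forkhead factor that enters the nucleus when PI3K and AKT signalling is low and that is needed for SSC upkeep, lies on chromosome 3 (52268336 to 52353221, plus strand). Its FPKM was 62.9 (61.3 to 64.5) in the heterozygous line and 58.0 (56.5 to 59.5) in the homozygous line, from 5945 and 5895 reads. The log2 ratio was -0.12. Its half-life was 112 min in the heterozygous line and 181 min in the homozygous line, the shortest of the 5 regulators in both. The ratio of 1.62 (log2 ratio 0.69) made it the only one of the 5 past 1.5-fold, a limit that 20.7% of all transcripts passed in either direction. A longer half-life thus stood beside a slightly lower level in the homozygous line. The deposited half-lives carry no error of the fit, so it is unknown how much of a difference of this size belongs to the fit.

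**Figure D2:**
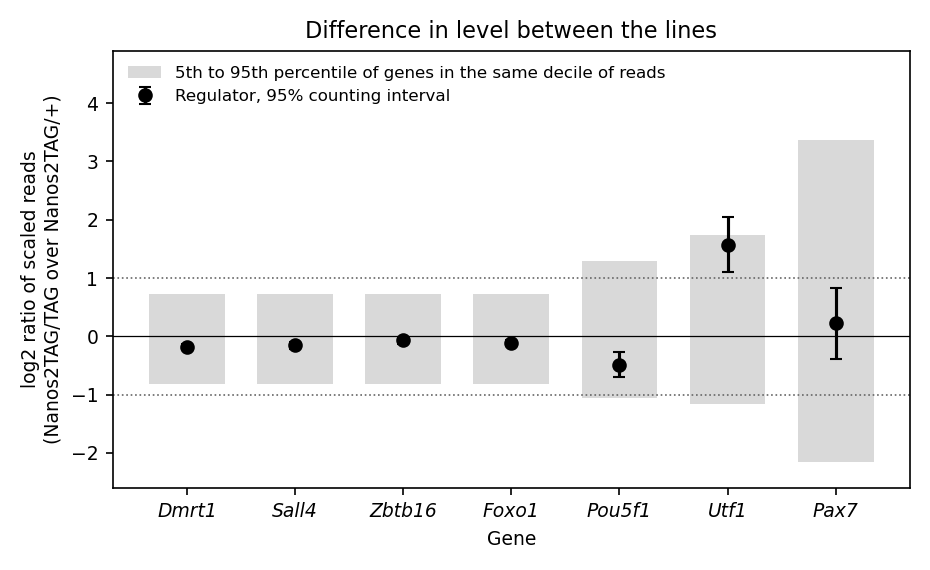
Log2 ratio of depth-scaled reads, homozygous over heterozygous (y axis), for the 7 regulators. Points carry 95% counting intervals, grey boxes span the 5th to 95th percentile of the log2 ratio of FPKM (0.1 added to each value) of the genes in the same decile of reads, and dotted lines mark 2-fold. All 7 points lie within their grey boxes, and only *Utf1*, at 1.56, is beyond a dotted line.

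The letters of the NANOS2 consensus given by the study were searched for in the 3′ UTR of 7 regulators, on the transcript strand only. *Taf4b* was not searched. The 4 forms searched were AUGAAAU and AUGAAUU, together with AUUAAAU and AUUAAUU. At least 1 match was present in 37.5% of 20892 annotated mouse 3′ UTRs. *Dmrt1* had 1 match in a 3′ UTR of 979 bases and *Foxo1* had 2 in a 3′ UTR of 6240 bases. These 3 sites are shown because they are the only matches among the 7 regulators, in lower case with the match in capitals and 10 bases on either side, read from the plus strand of GRCm38 and written as RNA. The *Dmrt1* site is in exon 5 and begins 360 bases after the stop codon, and the *Foxo1* sites are in exon 3 and begin 3420 and 6149 bases after it.
*Dmrt1*, chr19:25603700-25603726: ugggguucaaAUGAAAUuuucggugcc
*Foxo1*, chr3:52350391-52350417: aauugcaguuAUGAAUUaacaacaaaa
*Foxo1*, chr3:52353120-52353146: uuucuaacugAUGAAUUgagacaggag
Long 3′ UTRs hold a match more often. Among 3′ UTRs within 1.3-fold of the length, 38.1% had a match for *Dmrt1* and 90.6% for *Foxo1*. *Zbtb16* had 0 matches in 2845 bases, where 69.7% of 3′ UTRs of like length had one, and *Pax7* had 0 in 3725 bases, where 76.9% had one. *Sall4* had 0 in 1697 bases (52.0% of like length), *Pou5f1* 0 in 221 bases (12.1%) and *Utf1* 0 in 122 bases (7.24%). A match describes the letters only. The study measured NANOS2 binding to RNA by cross-linking (CRAC) in the homozygous line, and those data were not consulted here.

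*Pou5f1* encodes OCT4, the POU factor of the pluripotency network, and lies on chromosome 17 (35506018 to 35510772, plus strand). Its FPKM was 50.5 (45.7 to 55.6) in the heterozygous line and 35.9 (32.1 to 40.2) in the homozygous line, from 407 and 312 reads. The counting intervals did not overlap, and the ratio was 0.712 (log2 ratio -0.49). This was the largest difference downward among the 7, yet it was within the 5th and 95th percentile of genes in the same decile of reads, which were -1.06 and 1.29. *Pou5f1* has near copies in the mouse genome, and 88.7% of its stretches of 50 bases were unique, against at least 99.4% for the other 6, so its reads are less certain. No half-life was listed.

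*Utf1*, a chromatin protein of pluripotent cells that marks early undifferentiated spermatogonia, lies on chromosome 7 (139943789 to 139945112, plus strand). Its FPKM was 3.88 (2.90 to 5.09) in the heterozygous line and 11.5 (9.77 to 13.3) in the homozygous line, from 52 and 165 reads. The intervals were far apart, and the log2 ratio of scaled reads was 1.56 with a counting interval of 1.10 to 2.04. It moved from the 31.9th to the 52.2nd percentile of levels. Of the 1299 genes in its decile of reads 23.9% were past 2-fold in either direction, and 6.77% had a higher log2 ratio of FPKM than *Utf1* (1.54), with the 95th percentile at 1.74. As no half-life was listed, nothing on its stability can be said.

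*Pax7*, a paired box factor, lies on chromosome 4 (139737062 to 139833528, minus strand). Its FPKM was 1.04 (0.753 to 1.40) in the heterozygous line and 1.21 (0.912 to 1.58) in the homozygous line, from 43 and 54 reads, near the 13th percentile of levels in both. The interval of the log2 ratio of scaled reads, -0.38 to 0.84, included 0, so a difference was not detectable at this depth. Of the 4 muscle satellite cell markers, *Myod1*, *Myf5* and *Pax3* were not listed, which does not show their absence, and *Cdh15* had FPKM of 4.65 and 4.93.

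*Taf4b*, a germ cell variant of the TFIID subunit TAF4, lies on chromosome 18 (14783245 to 14900359, plus strand) and had no level in the table used here. Its half-life was 239 min in the heterozygous line and 229 min in the homozygous line, at the 56.3rd and 51.4th percentile. These were the values nearest to the medians of all transcripts, 224 and 226 min, among the 5 regulators. Its paralog *Taf4* had FPKM of 44.8 and 30.5.

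The order of the levels depended on the length that reads are divided by. The deposited FPKM matched the mean length of the annotated transcripts of a gene, and with it the order was the same in both lines: *Dmrt1*, *Sall4*, *Zbtb16*, *Foxo1*, *Pou5f1*, *Utf1* and *Pax7*. The ranges of the 2 lines did not overlap for any neighbours in that order. For *Sall4* the mean of 7 annotated transcripts of 328 to 5073 bases is 1895 bases, whereas its merged exons span 5536 bases. For *Pou5f1* the mean is 739.5 bases and the merged exons span 2248 bases. With the merged exons, chosen as an alternative after the data were seen, *Zbtb16* (77.0 and 73.3 on the FPKM scale) came before *Sall4* (73.2 and 65.6), and these neighbours then differed by little. *Pou5f1* fell to 16.6 and 11.8, and in the homozygous line it came next to *Utf1* at 11.5. *Dmrt1* remained highest at 414 and 366, and *Pax7* lowest at 0.673 and 0.785. *Foxo1* and *Utf1* have 1 annotated transcript each, so both lengths are equal. Ratios between the lines do not depend on the length.

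**Figure D3:**
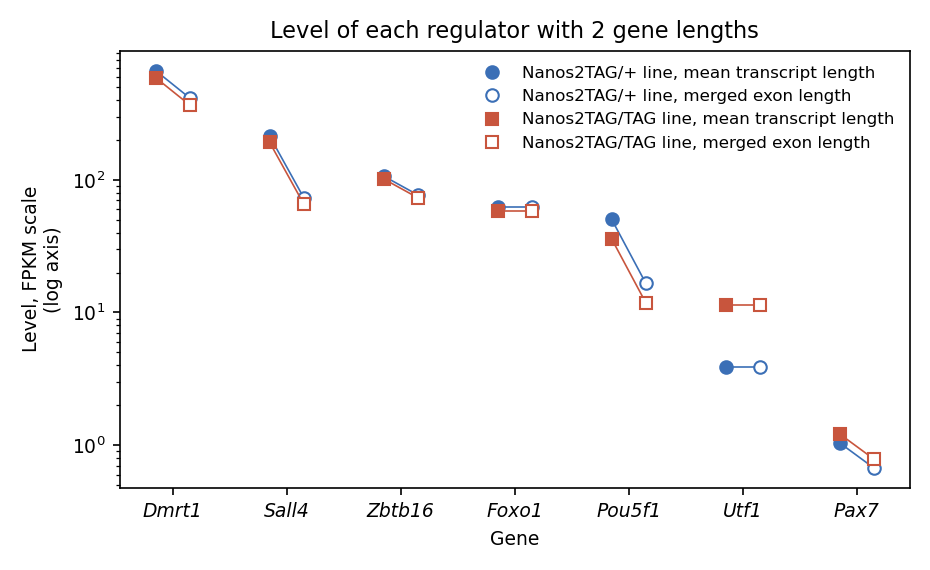
Level on the FPKM scale (y axis, log scale) for the 7 regulators, with the mean transcript length of the deposited FPKM (filled) and with the merged exon length (open). Circles are the heterozygous line and squares the homozygous line. *Sall4* and *Pou5f1* drop most, and *Foxo1* and *Utf1* keep their values.

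Half-lives of the 5 regulators were longest for *Dmrt1* and shortest for *Foxo1* in both lines. In the heterozygous line the order from long to short was *Dmrt1* (318 min), *Sall4* (261 min), *Zbtb16* (259 min), *Taf4b* (239 min) and *Foxo1* (112 min). In the homozygous line the order was the same, with *Dmrt1* and *Sall4* at 302 and 299 min. *Sall4* stood next to *Zbtb16* in the heterozygous line and next to *Dmrt1* in the homozygous line, with gaps smaller than its own difference between the lines, so it is not separated from these neighbours. All but *Foxo1* were above the medians of all transcripts in both lines. 2 regulators had longer half-lives in the homozygous line and 3 shorter, beside 3139 longer and 2667 shorter of all 5806 transcripts. The median log2 ratio of the regulators was -0.03, against 0.04 over all transcripts. The 3 regulators without a half-life were the 3 lowest in FPKM.

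**Figure D4:**
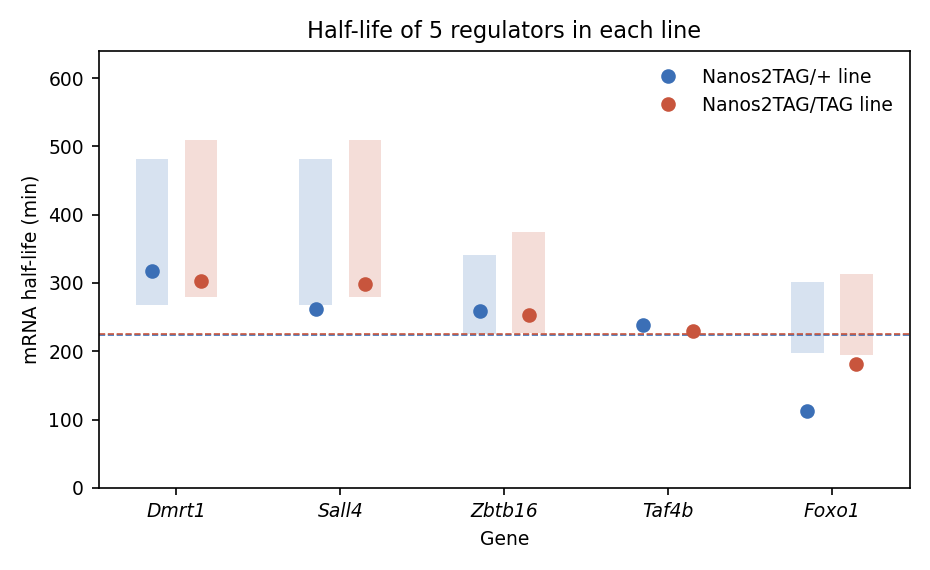
Half-life in minutes (y axis) of the 5 regulators in the heterozygous line (blue) and the homozygous line (red), 1 fitted value each. Dashed lines are the medians of all 5806 transcripts, and shaded boxes are the quartiles of transcripts in the same decile of mean FPKM. *Foxo1* lies under its box in both lines, *Sall4* under it in the heterozygous line, and *Taf4b* has no box because it has no level.

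Set beside transcripts of like deposited FPKM, the 4 regulators with both values stood below the median. Abundant transcripts in these data had longer half-lives, and in the top decile of mean FPKM, which held 516 transcripts with *Dmrt1* and *Sall4* among them, the median half-life was 339 min in the heterozygous line and 365 min in the homozygous line. Within it *Dmrt1* stood at the 44.7th and 35.8th percentile and *Sall4* at the 22.0th and 34.0th. *Zbtb16* stood at the 43.8th and 38.3rd percentile of its own decile, whose medians were 270 and 278 min. *Foxo1* stood at the 2.82nd percentile of its decile in the heterozygous line and at the 21.7th in the homozygous line, against medians of 244 and 248 min. All 4 regulators with both values thus lay below the median of their decile in both lines, while 3 of them lay above the median of all transcripts. The deciles rest on the deposited FPKM, and so on the mean transcript length. With merged exon lengths the levels of *Sall4* (73.2 and 65.6) and *Zbtb16* (77.0 and 73.3) were lower. Their place within deciles formed with that length was not tested.

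**Figure D5:**
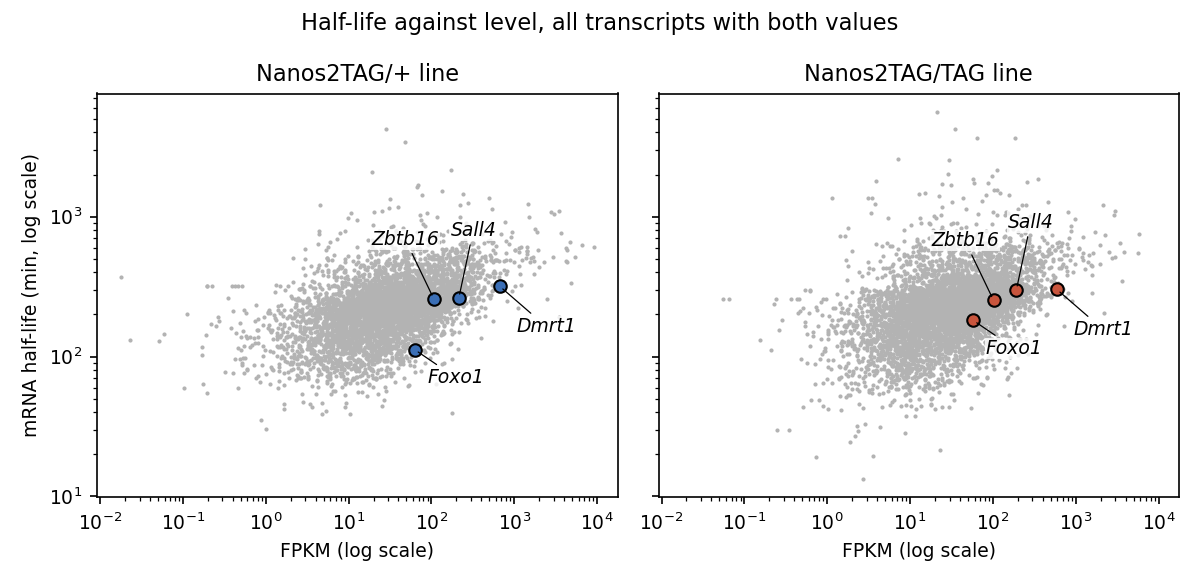
Half-life in minutes against FPKM (both axes on a log scale) for the transcripts with both values, in the heterozygous line (left) and the homozygous line (right), with 4 regulators marked and transcripts listed at FPKM 0 not drawn. The cloud of grey points, 1 per transcript, rises with FPKM, and *Foxo1* lies at its lower edge on the left, at 112 min.

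Several other genes of undifferentiated spermatogonia and self-renewal were higher in the homozygous line. Of 27 such genes 23 had a level, of which 8 were past 2-fold higher in the homozygous line and 0 past 2-fold lower, with a median log2 ratio of 0.25. Over the 13032 genes 13% were past 2-fold higher and 9.28% past 2-fold lower. The highest by the mean of both lines were *Ret*, the GDNF receptor kinase, with FPKM of 73.2 and 180.7, and *Bcl6b*, a GDNF-induced repressor, with 23.1 and 225, an order set by the homozygous line. The largest ratios were those of *Eomes* (0.272 and 5.95) and *Neurog3* (0.574 and 8.23), each from fewer than 10 reads in the heterozygous library. The list was not compared with the regulators by a test, since there is 1 library per line.

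Of 31 paralogs and partners of the regulators, 24 had a level, of which 3 were past 2-fold higher and 1 past 2-fold lower in the homozygous line, beside 13% and 9.28% of all genes, with a median log2 ratio of 0.17. *Chd4*, the NuRD helicase, was the most abundant at 387 and 449, followed in the mean of both lines by *Taf9b* at 180.5 and 174. *Dmrt2* had 0 and 45 reads, and *Pax8* had FPKM of 3.37 and 0.542. The paralogs *Sall1* (4.06 and 11.6) and *Sall2* (2.72 and 11.2), named here after their values were seen, completed those past 2-fold. Both were higher in the homozygous line, and any relation to *Sall4* was not tested.

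Of 18 pluripotency genes, 14 had a level, with a median log2 ratio of 0.34. Of these, 5 were past 2-fold higher and 2 past 2-fold lower in the homozygous line, beside 13% and 9.28% of all genes. The most abundant were *Klf4* (32.2 and 47.6) and *Tcl1* (30.4 and 51.0), and the largest ratios were those of *Tbx3* (0.0585 and 4.86, from 2 and 179 reads) and *Dppa3* (1.92 and 12.7, from 16 and 114 reads). The others past 2-fold higher were *Klf5* (1.57 and 4.59), *Esrrb* (5.49 and 11.7) and *Gdf3* (0.431 and 3.07, from 6 and 46 reads). The 2 past 2-fold lower were *Nanog* (2.92 and 1.07, from 66 and 26 reads) and *Sox2* (18.0 and 7.33). Genes past 2-fold beyond the 2 largest ratios were named here after their values were seen. *Pou5f1* was lower in the homozygous line, at a ratio of 0.712, and *Utf1* was higher. Any relation of these genes to *Pou5f1* or *Utf1* was not tested.

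Of 8 genes linked in the germline to control by these regulators, all had a level, 1 of them past 2-fold higher and 2 past 2-fold lower, beside the same shares of all genes. *Ret* was past 2-fold higher in the homozygous line, and *Ddit4*, a repressor of mTORC1 that ZBTB16 activates, was past 2-fold lower with FPKM of 54.3 and 18.1, as was the cyclin gene *Ccnd1* with 61.9 and 25.2. The most abundant were *Bnc2* (444 and 372) and *Ccnd2* (263 and 371). *Kit* (38.5 and 30.7), *Stra8* (8.21 and 6.18) and *Sohlh1* (16.9 and 10.4) were within 2-fold, as were *Zbtb16*, *Sall4* and *Dmrt1* themselves.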

How the data were processed

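The authors deposited gene levels as FPKM for 1 ribosomal RNA-depleted library per line (Lexogen SENSE kit). The aligner and counter for these are not given in the sources used here, and the submitters' processing notes name kallisto and DESeq2 with no role. The authors deposited half-lives in minutes, 1 per transcript and line, from SlamDunk conversion rates relative to the start of the chase, with technical replicates collapsed and a first-order decay fitted in R. The line of each column rests on its name (GG for TAG/TAG, Gp for TAG/+), and that of each half-life set on its name (tagtag, tagplus), where the sample labels call the sets CTL (TAG/+) and EXP (TAG/TAG). The depth behind the half-lives is unknown.

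The regulators and lists were chosen with earlier results of these data known. Reads were recovered as FPKM times the mean transcript length of GENCODE M21 and the depth factor. In a simulation built with the same lengths, the counts of 100% of 13867 genes were recovered, which checks the arithmetic only. Log2 ratios used a pseudocount of 0.1. Genes past 2-fold with FPKM of at least 1 in either line, and half-lives past 1.5-fold, were counted. With 1 value per line no test was made. Percentiles were also taken within deciles of reads or of mean FPKM. Strand of counting is not stated: *Sall4*, *Foxo1* and *Pou5f1* overlap antisense or opposite-strand genes, none of which were listed. *Foxo1* and *Taf4b* each also overlap an unlisted gene on their own strand. Python 3.11.15, pandas 2.3.3, numpy 2.4.6 and scipy 1.17.1 were used. Alternatives were another pseudocount, filter, fold limit, centring, reference set and gene length. CRAC libraries (2 of *Nanos2*TAG/TAG and 2 of *Nanos2*+/+) were not used here.

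Named were all 8 regulators, and from each list, marker lists included, the 2 genes of highest mean FPKM and the 2 of largest ratio. Some further genes of the lists were named as well, those past 2-fold after their values were seen. Genes most like a regulator were the 3 nearest by Euclidean distance over 4 standardised log2 values, 2 levels and 2 half-lives.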

Additional observations from a re-analysis of the deposited data

How the results depend on the processing

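No log2 ratio changed sign and no count of regulators changed under the alternatives tried. *Utf1* stayed the only regulator past the limit in FPKM with no filter, with a pseudocount of 1 and with a limit of 1.5-fold, and *Foxo1* the only one in half-life with a lower limit and with the median log2 ratio (0.04) subtracted. Subtracting the median log2 ratio of FPKM (-0.02 over 11480 genes) changed no direction. With the pseudocount of 1 the log2 ratio of *Utf1* was 1.35 in place of 1.54. A percentile was called moved when its shift reached the standard deviation of that gene's percentiles in the 2 lines. The reference set moved 12 of 14 percentiles of level when genes had to reach FPKM of 1 in both lines. In the heterozygous line *Dmrt1* counted as moved at 99.0 to 98.8, whereas *Utf1* did not at 31.9 to 18.5. Leaving out transcripts above 540 min moved 5 of 10 percentiles of half-life. Deciles of FPKM moved 6 of 8, where *Zbtb16*, *Sall4* and *Dmrt1* went from above to below the median in both lines. *Foxo1* did not count as moved there, at 9.36 to 2.82 in the heterozygous line. Merged exon lengths, chosen after seeing the data, moved 10 of 14 levels outside their counting intervals and exchanged the places of *Sall4* and *Zbtb16*. With 1 library per line no replicate could be left out, and no paired analysis was possible because no result comes from a test. Depth limits *Pax7* and *Utf1* most, with 43 and 52 reads in the heterozygous library.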

Other observations

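Genes of differentiating spermatogonia went both ways. All 9 on the list had a level, of which 1 was past 2-fold higher in the homozygous line and 0 past 2-fold lower, beside 13% and 9.28% of all genes, with a median log2 ratio of -0.33. The highest by the mean of both lines were *Ccnd2* (FPKM 263 and 371) and *Sohlh2*, a helix-loop-helix factor of differentiation (173 and 125). The largest ratios were those of *Prss50* (1.37 and 6.75) and *Rhox13* (18.8 and 12.5).

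Among 5144 genes with both kinds of value, those nearest to *Foxo1* in the heterozygous and homozygous levels and half-lives were *Mypop*, *Fbxo42* and *Eaf1*. Their distances were 0.250 to 0.316, and their half-lives were 115 to 120 min in the heterozygous line and 157 to 206 min in the homozygous line. Nearest to *Zbtb16* were *Nsfl1c*, *Baz1b* and *F11r* (distances 0.0761 to 0.112). Nearest to *Sall4* were *Ski*, *Kpnb1* and *Numa1* (0.0797 to 0.155), and nearest to *Dmrt1* were *Ybx1*, *Polr2i* and *Dcakd* (0.183 to 0.223). The neighbours of *Foxo1* were farther away than those of *Zbtb16* and *Sall4*. With 4 values per gene, likeness says nothing of shared function or control.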
